A study of Mus musculus with 91 samples.

Results

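Epithelial and mesenchymal cells read out different splice forms of the same genes, and a small set of RNA-binding proteins is known to set that choice. The 10 genes of this set (Esrp1, Esrp2, Rbfox2, Mbnl1, Mbnl2, Mbnl3, Ptbp1, Ptbp2, Celf1 and Celf2) were taken by name from the 53379 genes of the count file. Their levels were described in single cells of the caudal lateral epiblast, the tissue beside the node and the primitive streak from which cells leave the epiblast as mesoderm. The region came from MF1 embryos, an outbred mouse stock, in the early head fold stage (around day 8.0), with no genetic change or treatment named, and FACS placed cells singly into plate wells. Smart-seq2 libraries, which read whole transcripts and carry no molecular identifiers, gave counts for 91 cells.

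A cell was called epiblast-like where its Nkx1-2 level exceeded its Aldh1a2 level and mesoderm-like otherwise, which gave 43 and 48 cells. Nkx1-2 is a homeobox gene of the caudal epiblast, and Aldh1a2 encodes the enzyme that makes retinoic acid in mesoderm. Levels are counts per 1000000 counts of a cell (CPM), given as the mean with the SD over cells. The labels tie no cell to an embryo, so the cells form 1 pooled sample with no replicates. No test was made, and the SD describes the spread between cells. A gene was called higher in a class where mean CPM + 1 differed at least 2-fold, and log2 ratios are epiblast-like over mesoderm-like on that scale. The intervals beside shares of cells are exact Clopper-Pearson intervals of 95% confidence and cover counting error only. Just inside the class boundary lay the cell of well B10, with Nkx1-2 at 688 CPM and Aldh1a2 at 570 CPM. Just outside it lay the cell of well G3, at 164 and 301 CPM. The next epiblast-like cell, of well D7, had 574 and 1.81 CPM.

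The marker genes of the classes followed the rule. Of 8 epiblast markers, 7 were higher in epiblast-like cells, and the eighth, the pluripotency gene Pou5f1, had a log2 ratio of 0.87. All 8 mesoderm markers, which include the paraxial mesoderm genes Tbx6 and Msgn1, were higher in mesoderm-like cells. Markers of muscle, surface ectoderm, neural tissue, blood and endothelium, lateral mesoderm, endoderm and the node or notochord were sparse. Of their 40 genes only Tubb3, a neuronal tubulin, in mesoderm-like cells (38 of 48) and Myl7, a cardiac light chain, in epiblast-like cells (23 of 43) had reads in at least 50% of a class. The endoderm gene Cer1 stood at 1711 CPM in 1 mesoderm-like cell and had no read in any other cell. Total counts ran from 709866 to 4439571 per cell, with medians of 2450073 in epiblast-like and 2589802 in mesoderm-like cells, and mitochondrial genes took a median of 3.79% and 4.68%. No 2 cells held identical counts.

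Esrp1 and Esrp2 encode epithelial splicing regulatory proteins, which are found in epithelia, bind GU-rich RNA and promote epithelial exons such as that of the IIIb form of Fgfr2. Rbfox2 binds UGCAUG and acts beside exons in many tissues, and in mesenchymal cells it is known to act on many of the exons that Esrp proteins control. Mbnl (muscleblind-like) and Celf proteins often act in opposite directions on exons that change during development. Ptbp1 encodes the polypyrimidine tract binding protein, a repressor of exons in most non-neural cells, and Ptbp2 is its paralogue of neural tissue. The counts are sums over all forms of a gene and do not tell splice forms apart.

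Because 4 of the families hold close paralogues, the coding sequences were first compared for stretches that a read could not assign. The read length was 75 bases, and no 75-base window was shared between members of a family. Taken from the GENCODE annotation and transcripts of GRCm38, the following are the windows of 75 coding bases around the longest identical run of Esrp1 and Esrp2, of Mbnl1 and Mbnl2, of Ptbp1 and Ptbp2 and of Celf1 and Celf2. They are shown because the absence of Esrp2 and the shares of each family rest on reads that keep these genes apart, and capitals mark the identical run.
Esrp1: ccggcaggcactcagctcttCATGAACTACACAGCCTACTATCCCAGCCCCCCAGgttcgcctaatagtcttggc
Esrp2: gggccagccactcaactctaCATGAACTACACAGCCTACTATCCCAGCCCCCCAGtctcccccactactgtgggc
Mbnl1: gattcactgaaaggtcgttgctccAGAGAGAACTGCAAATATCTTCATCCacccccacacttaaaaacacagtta
Mbnl2: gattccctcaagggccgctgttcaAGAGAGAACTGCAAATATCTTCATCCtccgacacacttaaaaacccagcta
Ptbp1: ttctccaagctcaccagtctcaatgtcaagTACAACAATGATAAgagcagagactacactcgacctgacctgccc
Ptbp2: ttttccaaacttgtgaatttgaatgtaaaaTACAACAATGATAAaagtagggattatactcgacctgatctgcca
Celf1: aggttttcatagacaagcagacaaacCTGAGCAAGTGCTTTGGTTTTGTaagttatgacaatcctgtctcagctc
Celf2: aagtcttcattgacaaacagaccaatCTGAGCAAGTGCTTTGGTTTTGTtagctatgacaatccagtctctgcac

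The identical run was 35 bases long for Esrp1 and Esrp2, 26 for Mbnl1 and Mbnl2, 23 for Celf1 and Celf2 and 14 for Ptbp1 and Ptbp2. The Esrp1 window lies on the minus strand at chr4:11344235-11353341 and that of Esrp2 on the minus strand at chr8:106131802-106132152. Each spans the junction of exons 13 and 14 of the transcript with the longest coding sequence. The Mbnl1 window lies on the plus strand at chr3:60529793-60595656 and the Mbnl2 window on the plus strand at chr14:120325401-120379212. The Ptbp1 window lies in 1 exon on the plus strand at chr10:79859832-79859906, and the Ptbp2 window in 1 exon on the minus strand at chr3:119740385-119740459. The Celf windows span a junction, on the plus strand at chr2:91012801-91013270 for Celf1 and on the minus strand at chr2:6547181-6549873 for Celf2. Against all other annotated transcripts, 12.7% of the 75-base windows of Ptbp1, 6.80% of those of Celf2, 4.08% of those of Esrp2 and 0.836% of those of Esrp1 also occurred in another gene, and for the remaining members the share was at most 0.115%. Exons overlapped those of other genes over 20.7% of the bases of Ptbp1, 7.79% of Esrp2, 7.58% of Celf2 and 2.01% of Esrp1. Neither the labels nor the methods say how reads in such stretches were counted.

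Of the 9 members with a read in at least 3 cells, 1 met the 2-fold rule, Esrp1, which was higher in epiblast-like cells, and 0 met it in the direction of mesoderm-like cells. Of the 18043 further genes with a read in at least 3 cells, without the members and the genes of the class rule, 8.17% were called higher in epiblast-like and 9.55% higher in mesoderm-like cells, and among the 8641 that averaged 10 CPM or more these shares were 5.58% and 7.80%. The median log2 ratio of the 9 members was 0.25 and that of the other genes 0.01. Ptbp1, Ptbp2, Celf1 and Rbfox2 had reads in most cells of both classes, while Esrp1, Celf2 and the 3 Mbnl genes were sparse, and Esrp2 had no read in any cell.

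**Figure D1:**
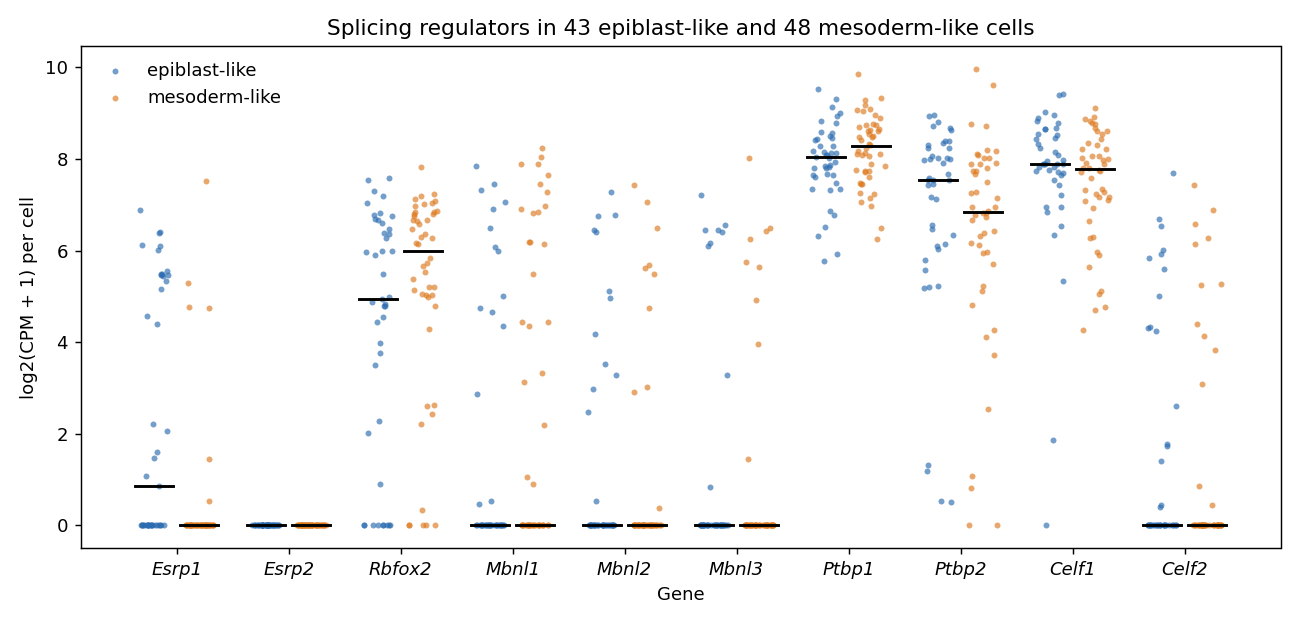
Level of each of the 10 genes in every cell as log2(CPM + 1), with 43 epiblast-like cells in blue and 48 mesoderm-like cells in orange; the black line is the median of the class. Ptbp1, Ptbp2 and Celf1 lie high in both classes, and Esrp1 has reads in 22 epiblast-like and 6 mesoderm-like cells.

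Esrp1 (ENSMUSG00000040728, GRCm38 chromosome 4, 11331933 to 11386783) averaged 20.4 ± 30.2 CPM in epiblast-like cells (n = 43), from 0 over a median of 0.816 to a highest value of 117 CPM. In mesoderm-like cells (n = 48) it averaged 5.71 ± 27.01 CPM, with a median of 0 and a highest value of 182 CPM. The log2 ratio was 1.67, a 3.18-fold difference that was smaller than the spread between cells, and the ranges of the classes overlapped. Reads of Esrp1 were found in 51.2% of epiblast-like cells, 22 of 43 with an interval of 35.5 to 66.7%, and in 12.5% of mesoderm-like cells, 6 of 48 with an interval of 4.73 to 25.2%. With at least 5 reads asked for, the counts were 18 of 43 and 4 of 48 cells. The intervals treat cells as independent, and cells of 1 pool give no spread between embryos. With all cells thinned to 500000 counts, a read remained in 21 and 5 cells.

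The Esrp1 levels of epiblast-like cells lay in separate ranges. No read was found in 21 cells, 6 had a level under 10 CPM with 3.67 CPM as the highest, and 16 lay between 20.1 and 117 CPM. Of the 6 mesoderm-like cells with Esrp1 reads, 4 lay at or above 10 CPM, at 25.9, 26.4, 38.03 and 182 CPM, and the others at 0.442 and 1.71 CPM. The cell at 182 CPM, of well D3, held 64.6% of all Esrp1 reads of the mesoderm-like class. Without the highest cell of each class the log2 ratio was 2.68, and with 10 CPM added in place of 1 CPM it was 0.95, below the 2-fold rule. The epiblast-like cells with Esrp1 reads were not the deeper ones, with a median total of 2258933 counts against 2754114 in those without. Over the epiblast-like cells the Esrp1 level did move with the number of genes with reads (Pearson r = 0.36). Esrp1 was the higher of the class means in epiblast-like cells in 7 of the 8 rows of the plate. The B10 cell at the class boundary had no Esrp1 read.

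Esrp2 (ENSMUSG00000084128, chromosome 8, 106130319 to 106136974) had 0 reads in all 91 cells. For a count of 0, 3 counts were taken as the limit, which allows a share of up to 6.98% of epiblast-like and 6.25% of mesoderm-like cells with reads, or 3.30% of all cells. The exact 95% intervals reach 8.22% and 7.40% of the classes. Over the summed counts of all cells this limit is 0.0128 CPM. The exons of Esrp2 overlap those of Nfatc3 and 1810019D21Rik over 7.79% of their bases. Of 5345 protein-coding genes with an overlap of 1 to 50%, 16.7% had no read in any cell, against 97.2% of the 176 genes overlapped over at least 99% of their bases and 37.7% of the 15918 overlapped by under 1%. Of all reads of the Esrp family, 2102 in epiblast-like and 703 in mesoderm-like cells, 100% were those of Esrp1.

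**Figure D2:**
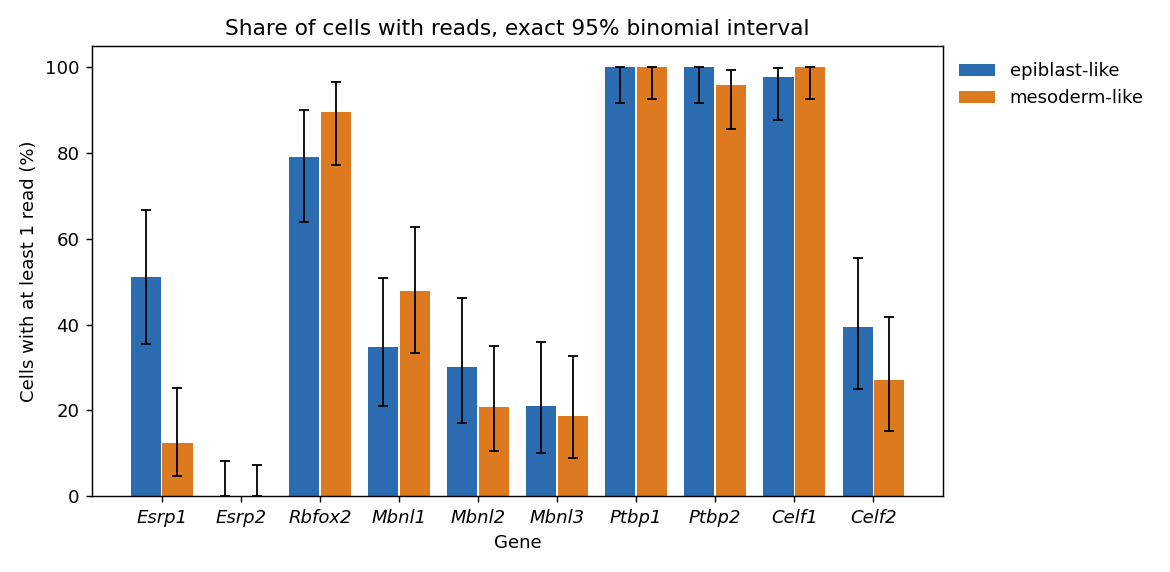
Share of cells with at least 1 read of each gene, in percent of the 43 epiblast-like (blue) and 48 mesoderm-like (orange) cells, with exact 95% binomial intervals as bars. The bars cover counting error over cells of 1 pool, and for Esrp1 they run from 35.5 to 66.7% and from 4.73 to 25.2%.

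Rbfox2 (ENSMUSG00000033565, chromosome 15, 77078990 to 77307004) averaged 53.7 ± 54.5 CPM in epiblast-like cells, with a median of 29.96 and a highest value of 190 CPM, and 67.7 ± 53.1 CPM in mesoderm-like cells, with a median of 63.002 and a highest value of 226 CPM. The lowest value was 0 in both classes, and the ranges overlapped over nearly their whole length. The log2 ratio was -0.33, a 1.26-fold difference. Reads were found in 34 of 43 epiblast-like cells (79.1%) and 43 of 48 mesoderm-like cells (89.6%), and of the cells with Esrp1 reads, 18 of 22 epiblast-like and 6 of 6 mesoderm-like cells had Rbfox2 reads as well. Its paralogues were close to absent. Rbfox1 averaged 0.763 and 1.75 CPM with reads in 2 and 6 cells, and Rbfox3, the neuronal antigen NeuN, averaged 2.58 and 0.962 CPM with reads in 7 and 3 cells.

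Of the Mbnl genes, zinc finger proteins that bind YGCY motifs in RNA, Mbnl1 (ENSMUSG00000027763, chromosome 3, 60472830 to 60629750) had the largest difference. Its mean was 26.6 ± 55.5 CPM over epiblast-like and 49.5 ± 82.7 CPM over mesoderm-like cells, with a median of 0 in both and highest values of 230 and 303 CPM. The log2 ratio was -0.87, a 1.83-fold difference under the 2-fold rule and under the spread between cells. When Tbx6 took the place of Aldh1a2 in the class rule, which moved 4 cells, it was -1.003 and met the rule. Mbnl1 had reads in 15 of 43 (34.9%, interval 21.01 to 50.9%) and 23 of 48 cells (47.9%, 33.3 to 62.8%).
Mbnl2 (ENSMUSG00000022139, chromosome 14, 120275669 to 120431697) averaged 15.2 ± 35.9 and 11.97 ± 34.3 CPM, with reads in 13 and 10 cells and highest values of 155 and 171 CPM. Mbnl3 (ENSMUSG00000036109, chromosome X, 51117269 to 51206532) averaged 15.01 ± 35.3 and 13.6 ± 42.4 CPM, with reads in 9 cells of each class and highest values of 148 and 258 CPM. Their log2 ratios were 0.32 and 0.13, far under the rule, and that of Mbnl3 was -0.11 with Tbx6 in the class rule, and 1 mesoderm-like cell held 49.97% of the Mbnl3 reads of its class. No Mbnl gene had reads in 16 epiblast-like and 17 mesoderm-like cells, 1 of the 3 in 18 and 21 cells, a pair of them in 8 and 9, and all 3 in 1 cell of each class. Mbnl1 took 50.9% of the Mbnl reads in epiblast-like and 58.7% in mesoderm-like cells, or 35.9% and 43.4% per kilobase of exon. These shares rest on few cells, since Mbnl1 gave more than 50% of the Mbnl reads in 10 of 27 epiblast-like and 19 of 31 mesoderm-like cells that had any.

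Ptbp1 (ENSMUSG00000006498, chromosome 10, 79854427 to 79864771) had reads in all 91 cells. It averaged 281 ± 149 CPM in epiblast-like cells, from 53.9 over a median of 262 to 736 CPM, and 331 ± 167 CPM in mesoderm-like cells, from 75.4 over 308 to 921 CPM. Ptbp2 (ENSMUSG00000028134, chromosome 3, 119718742 to 119784466) averaged 199.8 ± 142 CPM, from 0.428 over 186 to 494 CPM, and 168 ± 188 CPM, from 0 over 114 to 1001 CPM. It had reads in all 43 epiblast-like and in 46 of 48 mesoderm-like cells, and its highest value was that of the G3 cell just outside the class boundary. The log2 ratios of -0.23 and 0.25 were both under the 2-fold rule, and the ranges of the classes overlapped.
Within the family Ptbp1 took 57.3% of the reads of the pair in epiblast-like and 65.2% in mesoderm-like cells, or 72.2% and 78.4% per kilobase of exon. Cell by cell the share of Ptbp1 ran from 16.7% to 99.9% with a median of 55.03% in epiblast-like cells, and from 17.3% to 100% with a median of 71.5% in mesoderm-like cells. Ptbp1 gave more than 50% of the reads of the pair in 28 of 43 epiblast-like and 40 of 48 mesoderm-like cells. Over the cells, the levels of Ptbp1 and Ptbp2 had a Pearson r of 0.03 in each class. Ptbp3, the paralogue known from blood cells, averaged 48.1 ± 87.7 and 64.6 ± 115 CPM with reads in 25 and 28 cells.

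Celf1 (ENSMUSG00000005506, chromosome 2, 90940382 to 91019497), which binds GU-rich elements and acts in both splicing and mRNA decay, averaged 275 ± 158 CPM in epiblast-like cells, from 0 over a median of 237 to 687 CPM. In mesoderm-like cells it averaged 226 ± 141 CPM, from 18.3 over 219 to 552 CPM. The log2 ratio was 0.28, and although the mean was higher in epiblast-like cells in 7 of the 8 plate rows, the ranges overlapped. Celf2 (ENSMUSG00000002107, chromosome 2, 6539694 to 7509563) averaged 16.9 ± 39.2 and 13.8 ± 35.001 CPM with reads in 17 and 13 cells and highest values of 207 and 172 CPM. Its log2 ratio was 0.27. Celf1 took 94.5% of the reads of the pair in epiblast-like and 93.6% in mesoderm-like cells, or 98.2% and 97.8% per kilobase of exon.
Of the further Celf genes, Celf4 averaged 28.9 ± 41.6 and 42.5 ± 56.6 CPM with reads in 26 and 37 cells, a log2 ratio of -0.54. Celf3 and Celf5 had reads in 1 and 1 epiblast-like and 2 and 4 mesoderm-like cells. Celf6 had 2 reads in 1 epiblast-like cell and averaged 4.64 ± 13.1 CPM in mesoderm-like cells with reads in 7, a log2 ratio of -2.47, which made it the 1 of 7 family paralogues past the 2-fold rule. That is 14.3% of this short list, beside 9.55% of the 18043 further measured genes in the same direction.

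Levels were set side by side between genes only after division by exon length, as RPKM (reads per kilobase of exon and 1000000 counts). In epiblast-like cells the order was Ptbp1 at 59.4 ± 31.4 RPKM, Celf1 at 32.6 ± 18.7, Ptbp2 at 21.8 ± 15.5, Rbfox2 at 6.60 ± 6.69, Esrp1 at 3.23 ± 4.79, Mbnl3 at 1.72 ± 4.04, Mbnl1 at 1.42 ± 2.97, Mbnl2 at 1.26 ± 2.997 and Celf2 at 0.653 ± 1.51 RPKM. In mesoderm-like cells Ptbp1 stood at 69.9 ± 35.3 RPKM, Celf1 at 26.8 ± 16.7, Ptbp2 at 18.3 ± 20.5, Rbfox2 at 8.31 ± 6.53, Mbnl1 at 2.64 ± 4.42, Mbnl3 at 1.56 ± 4.85, Mbnl2 at 0.998 ± 2.86, Esrp1 at 0.906 ± 4.28 and Celf2 at 0.534 ± 1.35 RPKM. The first 4 places and the last were the same in both classes, and Esrp1 was the fifth in epiblast-like and the eighth in mesoderm-like cells. The means of neighbours in these orders differed by less than the larger of their SDs, apart from Ptbp1 and Celf1 in mesoderm-like cells.

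**Figure D3:**
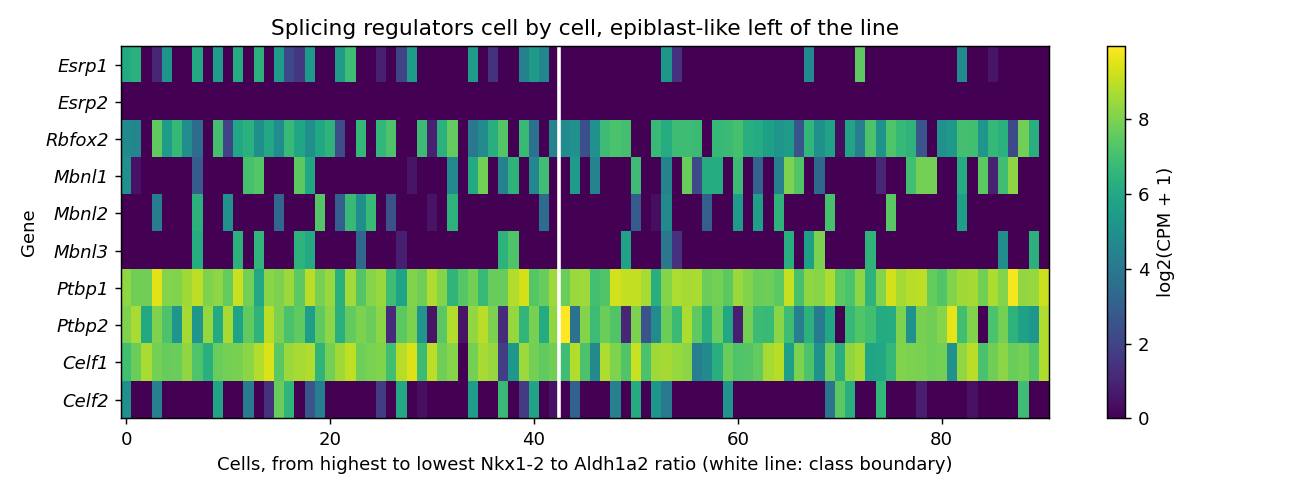
Level of each gene (rows) in each of the 91 cells (columns) as log2(CPM + 1), with cells ordered from the highest to the lowest ratio of Nkx1-2 to Aldh1a2 and a white line at the class boundary. Ptbp1, Ptbp2 and Celf1 run across nearly all cells, while reads of Esrp1, Celf2 and the Mbnl genes are scattered over single cells, with most Esrp1 cells left of the line.

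An epiblast-like cell had reads of 2 to 8 of the 10 genes with a median of 6, and a mesoderm-like cell of 3 to 9 with a median of 5. The levels of the members moved little with each other over cells. As a description over cells that share 1 plate, the Pearson r of log2(CPM + 1) over the 36 pairs of members with reads ran from -0.24 to 0.53 in epiblast-like cells and from -0.25 to 0.22 in mesoderm-like cells, with medians of 0.04 and 0.03. The highest value was that of Ptbp2 and Celf1 in epiblast-like cells, where Spearman's rho was 0.14. In epiblast-like cells 6 of the 9 cells with Mbnl3 reads also had Mbnl1 reads (r = 0.47), and in mesoderm-like cells 4 of 9 (r = -0.01).

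The gene with the level most like that of Esrp1 over the 91 cells, among 11533 genes with reads in at least 20% of cells, was the processed pseudogene Gm7584 (Pearson r = 0.55), followed by Vps33b (0.50) and Btbd19 (0.48). For Rbfox2 they were Clta (0.46), Dclk1 (0.39) and Clic4 (0.38), for Ptbp2 Erc1 (0.42), Ly6e (0.40) and Nemf (0.38), and for Celf1 Usp7 (0.39), Phf6 (0.38) and Gpbp1 (0.38). For Ptbp1 they were Gm4900 (0.63), Gm8797 (0.61) and Actg1 (0.59). Gm4900 is a processed pseudogene that shares 75-base windows with Ptbp1, so that reads of the pair may not be told apart. These are the highest Pearson values among 11533 genes, over cells of 1 pool. Spearman's rho, in the same order of genes, was 0.48, 0.50 and 0.47 for Esrp1 and 0.31, 0.38 and 0.17 for Rbfox2. It was 0.34, 0.22 and 0.21 for Ptbp2, 0.30, 0.08 and 0.23 for Celf1 and 0.65, 0.57 and 0.58 for Ptbp1.

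Esrp1 was set beside genes of the epithelial and mesenchymal states. Cdh1, which encodes E-cadherin, had a mean of 276 ± 175 CPM over epiblast-like and 50.2 ± 83.8 CPM over mesoderm-like cells. Of the 22 epiblast-like cells with Esrp1 reads, 21 had Cdh1 reads, as did all 21 cells without Esrp1 reads. Of the 6 mesoderm-like cells with Esrp1 reads, 2 had Cdh1 reads, against 20 of the 42 without. Epcam, an adhesion protein of epithelia with 272 ± 171 and 55.7 ± 77.9 CPM, had reads in all 43 epiblast-like cells. It had reads in 5 of the 6 mesoderm-like cells with Esrp1 reads, against 33 of the 42 without. The Pearson r of Esrp1 with Epcam was 0.22 in epiblast-like and -0.001 in mesoderm-like cells. Within a class the Pearson r of Esrp1 with Cdh1 was 0.14 in epiblast-like and -0.08 in mesoderm-like cells.
Zeb1 and Zeb2 encode zinc finger repressors of epithelial genes, with Esrp1 among the known targets. Zeb1 averaged 8.32 ± 32.96 and 25.6 ± 54.3 CPM (log2 ratio -1.51) and Zeb2 35.9 ± 44.2 and 102 ± 107 CPM (-1.49). Of the 6 mesoderm-like cells with Esrp1 reads, 5 had Zeb1 reads, against 10 of the 42 without, and the Pearson r was 0.48. In epiblast-like cells 3 of 22 cells with Esrp1 reads and 3 of 21 without had Zeb1 reads. Zeb2 had reads in 5 of the 6 mesoderm-like cells with Esrp1 reads, against 37 of the 42 without (Pearson r = -0.04). For epiblast-like cells the Zeb2 counts were 17 of 22 with Esrp1 reads and 14 of 21 without (r = 0.12). In mesoderm-like cells the Esrp1 level also moved with the number of genes with reads (Pearson r = 0.48, and 0.36 in epiblast-like cells), and the part of that number in these counts was not tested.
Snai1, a repressor that drives epithelial to mesenchymal transition, averaged 7.28 ± 18.2 and 24.4 ± 33.8 CPM (log2 ratio -1.62). It had reads in 3 of the 22 epiblast-like and 4 of the 6 mesoderm-like cells that had Esrp1 reads. Among cells without Esrp1 reads the counts were 4 of 21 and 16 of 42, and the Pearson r was -0.21 and 0.17. Cdh2 (N-cadherin, -1.59), the intermediate filament gene Vim (-1.72), fibronectin Fn1 (-3.64) and Twist1 (-1.80, reads in 1 and 4 cells) were higher in mesoderm-like cells as well. Snai2 had reads in 1 cell of each class. Of the 9 measured genes of this list, which was chosen for genes known to separate the states, 2 were higher in epiblast-like and 7 in mesoderm-like cells.

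**Figure D4:**
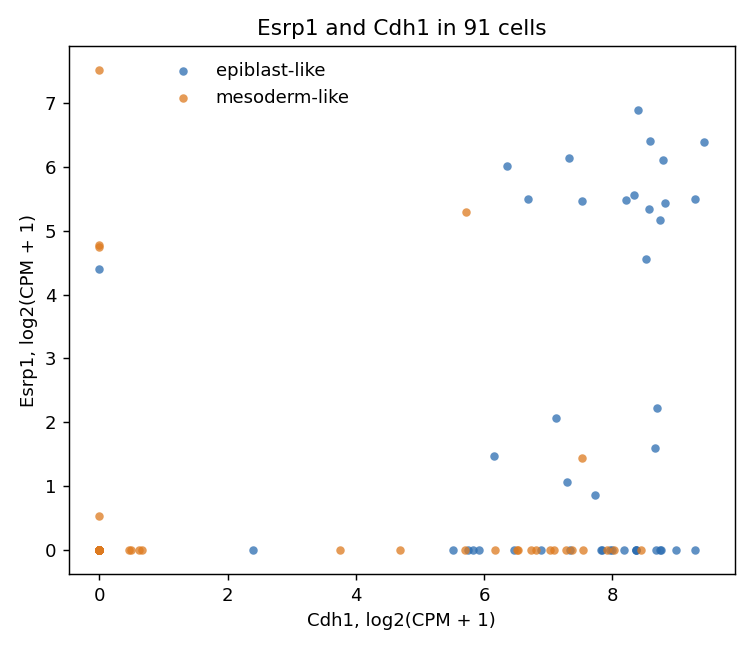
Esrp1 against Cdh1, each as log2(CPM + 1), in 43 epiblast-like (blue) and 48 mesoderm-like (orange) cells, 1 point per cell. Of the 43 epiblast-like cells, 42 have Cdh1 reads, with or without Esrp1 reads, and 4 of the 6 mesoderm-like cells with Esrp1 reads have none.

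The genes whose splice forms are known to differ between epithelial and mesenchymal cells were next described by their gene-level counts. Of 18 genes, 2 were higher in epiblast-like and 2 in mesoderm-like cells, and the median log2 ratio was -0.31. These counts are 11.1% in each direction, near the 8.17% and 9.55% of the 18043 further measured genes. Itga6, an integrin of basement membrane contacts, averaged 48.2 ± 55.7 CPM with reads in 32 of 43 epiblast-like cells and 3.005 ± 11.5 CPM with reads in 5 of 48 mesoderm-like cells (log2 ratio 3.62). Fgfr2 averaged 34.6 ± 67.2 CPM with reads in 15 epiblast-like cells and 11.6 ± 76.2 CPM with reads in 4 mesoderm-like cells, the highest at 528 CPM (2.83-fold). Magi1, a scaffold protein of cell junctions, averaged 113 ± 85.4 and 372 ± 252 CPM (-1.71), and Arhgef11 0.382 ± 1.71 and 3.995 ± 16.9 CPM (-1.85) with reads in 4 and 6 cells. Fgfr1, an FGF receptor of nascent mesoderm, averaged 139 ± 84.1 and 271 ± 168 CPM, a log2 ratio of -0.95 just under the rule. The remaining 13 genes, Cd44, Enah and Ctnnd1 among them, were under the rule too.

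Of the other splicing factors, the 33 core spliceosome genes held closest to the same level in both classes, with 0 past the rule in either direction and log2 ratios from -0.28 to 0.42. Of 11 SR proteins, which bind exonic enhancers, 1 passed it, Srsf12, with reads in 3 and 1 cells, and the median log2 ratio was 0.01. Of 21 hnRNP proteins, 2 were higher in mesoderm-like cells, Hnrnpa0 (103 ± 54.2 and 215 ± 115 CPM, log2 ratio -1.06) and Hnrnpa3 (21.7 ± 20.4 and 47.3 ± 35.3 CPM, -1.09), and 0 in epiblast-like cells. The SR call was 9.09% of its list, near the 8.17% of the 18043 further measured genes higher in epiblast-like cells. The hnRNP calls were 9.52% of theirs, near the 9.55% of those genes higher in mesoderm-like cells.
Of 27 measured genes among other tissue-regulated splicing factors, 6 were higher in epiblast-like and 5 in mesoderm-like cells, or 22.2% and 18.5%. Over the 18043 further measured genes these shares were 8.17% and 9.55%. The list was chosen with earlier results of these data known, and several of its calls rest on reads in few cells. Rbm38, which also binds the p21 transcript, averaged 42.7 ± 47.9 CPM with reads in 32 of 43 epiblast-like cells and 9.41 ± 21.4 CPM with reads in 12 of 48 mesoderm-like cells (log2 ratio 2.07). The other 5 were sparser, from Srrm3 with reads in 2 epiblast-like cells to Elavl2 with reads in 16. Rbm24, a splicing regulator of muscle and heart, averaged 0.569 ± 3.40 CPM with reads in 2 epiblast-like cells and 20.8 ± 32.99 CPM with reads in 27 of 48 mesoderm-like cells (-3.80). Khdrbs3 averaged 36.6 ± 32.1 and 96.0 ± 74.5 CPM (-1.37) and Rbms1 104 ± 86.8 and 214 ± 133 CPM (-1.03). Nova1 (-2.67) and Srrm4 (-2.44), both known from neurons, had reads in 21 and 12 mesoderm-like cells. Rbm47, known to act on epithelial splice forms, averaged 6.41 ± 18.8 and 5.92 ± 15.2 CPM with reads in 12 cells of each class.

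**Figure D5:**
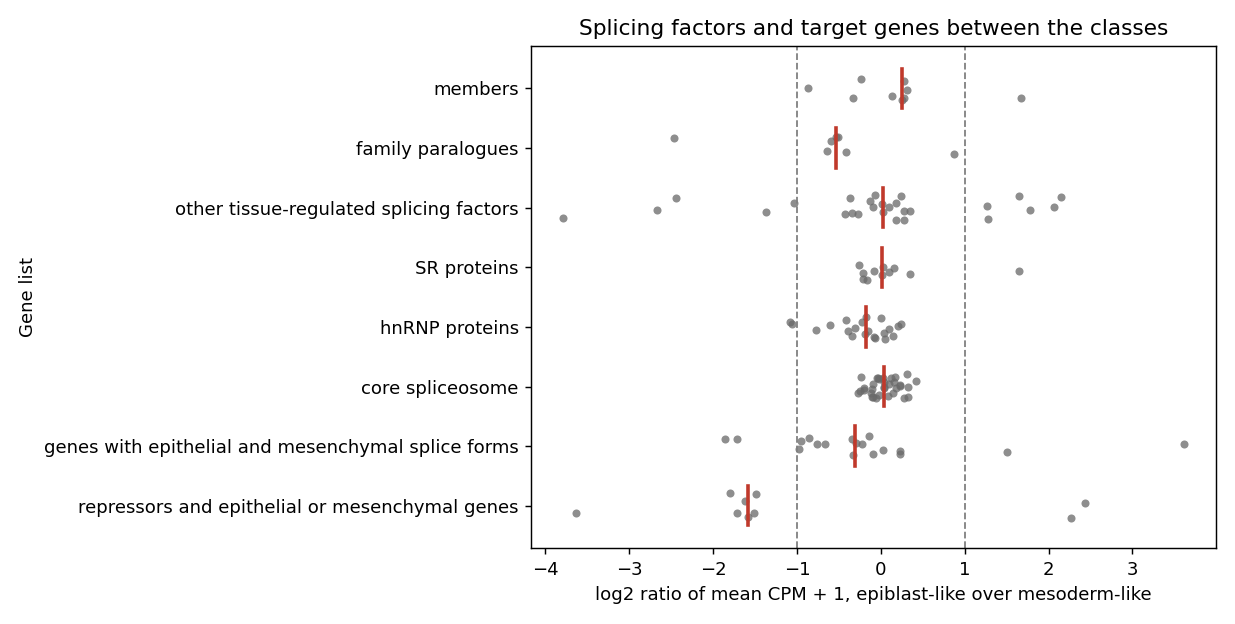
Log2 ratio of mean CPM + 1, epiblast-like over mesoderm-like, for each measured gene (points) of 8 lists, with the median of the list in red and dashed lines at the 2-fold rule. The 33 core spliceosome genes lie between -0.28 and 0.42, and among the members Esrp1 at 1.67 is the 1 gene outside the lines.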

How the data were processed

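The authors deposited unnormalized read counts for 53379 genes in 91 cells. Per the labels and methods, reads were aligned to GRCm38 (mm10) with HISAT2 and counted with featureCounts. Versions, annotation and strandedness were not given in the sources used here. Symbols, exon lengths, loci and coding sequences were taken from GENCODE, in which 53274 identifiers matched.

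Counts were scaled to CPM with pandas 2.3.3 and numpy 2.4.6 under Python 3.11.15. The exact intervals came from scipy 1.17.1, and the grouping by principal components from scikit-learn 1.9.0. No cell was left out, all columns were mapped to cells and no doublet caller was run. With 1 pool of cells, no test, p-value or standard error was computed. Total counts had a median of 2507671 per cell, and since several reads can stem from 1 molecule, intervals and limits cover counting error only.

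The members, lists and 2-fold rule were chosen with earlier results of these data known. The genes named are the members, every family paralogue and repressor, of each other list up to 4 genes past the rule with reads in at least 50% of the higher class, the 3 genes most like each member that had reads in at least 50% of a class, and the genes behind counts of 5 or fewer. The splice-form genes, Srrm3, Elavl2, Rbm47, Tubb3, Myl7 and Cer1 named beyond this rule were chosen after their values were seen. Alternatives to the scaling, pseudocount, depth, class rule and filter were run.

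The procedure was tested on simulated counts with the class sizes used here and scored on 8652 genes with a mean of at least 10 CPM. Of 50 genes with each true fold, 34% passed the rule at a fold of 2, 98% at 4 and 100% at 8 and 16, and 2.60% of 8452 unchanged genes passed it. These shares are averages over the scored genes, and no share was computed for sparse genes alone. A simulated gene was switched on with the same chance in a cell of either class, so its fold lay in the level alone. Esrp1 had reads in 22 epiblast-like and 6 mesoderm-like cells, with 64.6% of its mesoderm-like reads in 1 cell. The 2.60% is therefore not an error rate for the call of Esrp1 or of other sparse genes. Nor do the pass rates cover genes that differ in their share of cells with reads.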

Additional observations from a re-analysis of the deposited data

How the results depend on the processing

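Each log2 ratio of a member was taken under 9 alternatives, and the shares of cells and reads under a pair of alternatives each. The stricter read filter changes only which genes are kept, so the log2 ratios of members could not move under it. The Esrp1 share of Esrp reads could not move either, since Esrp2 had no read. Of the log2 ratios, read shares and counts of genes, 115 values were the same, 16 moved, 1 was weaker and 1 stronger. The values that could not move are among the 115. For a log2 ratio the same meant the same side of the 2-fold rule, and for a share a place inside its exact interval. For a count of genes it meant a change within a set fold, not an error. By that measure 2166 and 2375 genes with 0.1 CPM added were the same as 1474 and 1723. All 40 counts of cells with reads stayed inside their intervals. The direction of a member changed once, for Mbnl3, from a log2 ratio of 0.13 to -0.11 with classes from Nkx1-2 and Tbx6, both far under the rule. The log2 ratio of Esrp1 ran from 0.95 to 2.68 and that of Mbnl1 from -1.003 to -0.70. With 10 CPM added to each mean, 0 members were higher in epiblast-like cells, Esrp1 had a log2 ratio of 0.95, and 315 and 444 of the other measured genes were higher in epiblast-like and mesoderm-like cells. Only the number added differed from the main setting, so the call of Esrp1, at means of 20.4 and 5.71 CPM, depends on it. With at least 5 reads in at least 10 cells asked for, 811 and 1013 of 11363 genes were higher in epiblast-like and mesoderm-like cells.

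With classes from Nkx1-2 and Tbx6 (47 and 44 cells), 1 member, Mbnl1, was higher in mesoderm-like cells at -1.003. In these classes Mbnl1 took 52.2% of the Mbnl reads and Ptbp1 57.8% of the Ptbp reads in epiblast-like cells, and Celf1 took 94.9% and 93.1% of the Celf reads in epiblast-like and mesoderm-like cells. Per kilobase of exon, the shares in epiblast-like and mesoderm-like cells were 35.9% and 43.4% for Mbnl1, 72.2% and 78.4% for Ptbp1 and 98.2% and 97.8% for Celf1. The cause of the shifts with the class rule was not tested. The grouping by principal components put 1 cell in the other class. No paired analysis was possible because the cells form 1 pool with no replicate number shared between classes. A cell without reads is not shown to lack the transcript. Thinning to 500000 counts cost at most 2 cells with reads per member and class.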
